A study of Homo sapiens with 3 samples.

Results

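In Kelly cells fully resistant to an ALK inhibitor, 967 of 5843 cells (16.5%) carried at least 4 RNA molecules of NEUROD1, and this NEUROD1-high subset is described here. Its cells were chosen by their own measured NEUROD1 count, from fully resistant cells with at least 9500 unique molecular identifiers (UMIs, each counting 1 captured RNA molecule), at least 500 detected genes and at most 20% of UMIs from mitochondrially encoded genes. They were set against the 2996 cells of the same library (51.3%) without a NEUROD1 UMI, called NEUROD1-zero cells below. The remaining 1880 cells (32.2%) held 1 to 3 NEUROD1 UMIs. A cut on a count gives a range of cells and not a cell type, and NEUROD1 itself was left out of every comparison.

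Kelly is a long established line of human neuroblastoma in which MYCN is amplified and ALK is mutated, and TAE684 inhibits the ALK kinase. Sensitive cells were kept in the vehicle DMSO, intermediate resistant cells in 500 nM TAE684 and fully resistant cells in 1 µM TAE684, all in RPMI-1640 medium with fetal bovine serum and antibiotics. Poly(A) RNA was profiled in single cells by 10x Genomics 3' chemistry (v2), with 1 library per state and no replicate culture, and the 3 libraries held 16586 cells under these filters. With n = 1 library no test was possible, cells were not treated as replicates, and every 95% interval covers counting error only.

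NEUROD1 is a basic helix-loop-helix transcription factor that drives neuronal and endocrine differentiation and binds E-box motifs, among them CAGATG and CAGCTG, together with partner proteins. Proneural factors of this family typically act in immature neurons, ahead of neurofilament and synaptic genes. Sympathetic neuroblasts, the cells that neuroblastoma resembles, are known for another set of factors (PHOX2A, HAND1, GATA2, GATA3, TFAP2B) and for the enzymes that make catecholamines from tyrosine.

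To show the regions beside which these E-boxes could lie, the 250 bases upstream of the start are printed for NEUROD1 and for the 2 genes with the highest ratios between the subset and the NEUROD1-zero cells, PPP1R17 and PDZRN4. Sequences were from RefSeq on GRCh38.p14, whereas the counts were made on hg19. They run 5′ to 3′ on the strand of the gene, and capitals mark the motif CAGATG, found on either strand and shown as its reverse complement where on the other strand, and the motif CAGCTG, which reads the same on both strands. The windows are chr2:181680518-181680767 on the minus strand for NEUROD1, chr7:31686965-31687214 on the plus strand for PPP1R17 and chr12:41437489-41437738 on the plus strand for PDZRN4.
NEUROD1: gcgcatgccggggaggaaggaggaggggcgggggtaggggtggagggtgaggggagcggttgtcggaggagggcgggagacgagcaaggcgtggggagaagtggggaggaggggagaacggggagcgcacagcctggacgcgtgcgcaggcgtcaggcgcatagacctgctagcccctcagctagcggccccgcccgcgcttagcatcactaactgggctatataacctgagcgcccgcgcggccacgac
PPP1R17: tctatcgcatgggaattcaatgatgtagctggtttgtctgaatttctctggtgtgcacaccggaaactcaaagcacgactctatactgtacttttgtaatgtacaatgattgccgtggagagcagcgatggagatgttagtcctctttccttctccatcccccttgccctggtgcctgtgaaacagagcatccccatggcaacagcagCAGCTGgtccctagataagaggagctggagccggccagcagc
PDZRN4: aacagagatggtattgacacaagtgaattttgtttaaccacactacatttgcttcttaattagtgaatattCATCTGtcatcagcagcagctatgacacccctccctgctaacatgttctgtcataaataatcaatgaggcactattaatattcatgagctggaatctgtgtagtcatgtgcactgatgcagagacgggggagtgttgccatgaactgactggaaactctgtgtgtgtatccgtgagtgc

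The PPP1R17 and PDZRN4 windows each held 1 match and the NEUROD1 window held 0. Of all 35116 promoter windows of this length in the RefSeq table, 24.3% held either motif, 12.2% CAGATG and 14.0% CAGCTG. Of the 5918 windows of the genes tested for a difference, from which both ends of the ranking were drawn, 18.5% held either motif, 7.55% CAGATG and 12.1% CAGCTG. Of the 20 genes with the highest ratios, 10 could be matched to the table, with 25 windows, 10 of them from the single gene ANK2, and 9 of the 25 windows (36%) held either motif. Of the 15 genes with the lowest ratios, 11 were matched, and 3 of their 16 windows (18.8%) held one. A match is a run of letters and not a measured site, and the windows of 1 gene overlap one another in part.

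Most NEUROD1 RNA was found in the fully resistant library, where it reached 110.5 UMIs in every 1000000 UMIs (CPM; 95% interval 108.5 to 112.6), against 6.31 CPM in the intermediate resistant and 4.47 CPM in the sensitive library. No cell of the other libraries reached 4 NEUROD1 UMIs. The 0 of 5836 intermediate resistant cells allow a share of up to 0.0514%, and the 0 of 4907 sensitive cells up to 0.0611%, and the highest count in either was 3. At least 1 NEUROD1 UMI was found in 48.7% of fully resistant, 9.80% of intermediate resistant and 7.83% of sensitive cells, at median depths of 16488, 16037 and 16555 UMIs per cell.

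Within the subset NEUROD1 ran from 4 to 42 UMIs per cell with a median of 7, and the subset held 74.8% of the library's NEUROD1 UMIs. Just inside the cut lay 148 cells with 4 UMIs and just outside it 247 cells with 3, while 299 cells (30.9% of the subset) held 10 or more. The plot of NEUROD1 counts per cell shows no gap at the cut. When every cell was thinned at random to 9500 UMIs, the subset's counts ran from 0 to 21 with a median of 4, and 365 of its cells fell to 3 or fewer. RNA free in the droplets of this library, read from barcodes with at most 100 UMIs, held NEUROD1 at 135 CPM. Among genes with at least 100 UMIs in that free RNA, PPP1R17 was lowest in NEUROD1-zero cells relative to it, at 1.20 CPM or 2.31%. If every cell held free RNA at the same share, this would be an upper bound. That share would give 0.0555 NEUROD1 UMIs in a subset cell of median depth. The bound comes from cells chosen for 0 NEUROD1 UMIs, and the share in subset cells was not measured.

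**Figure D1:**
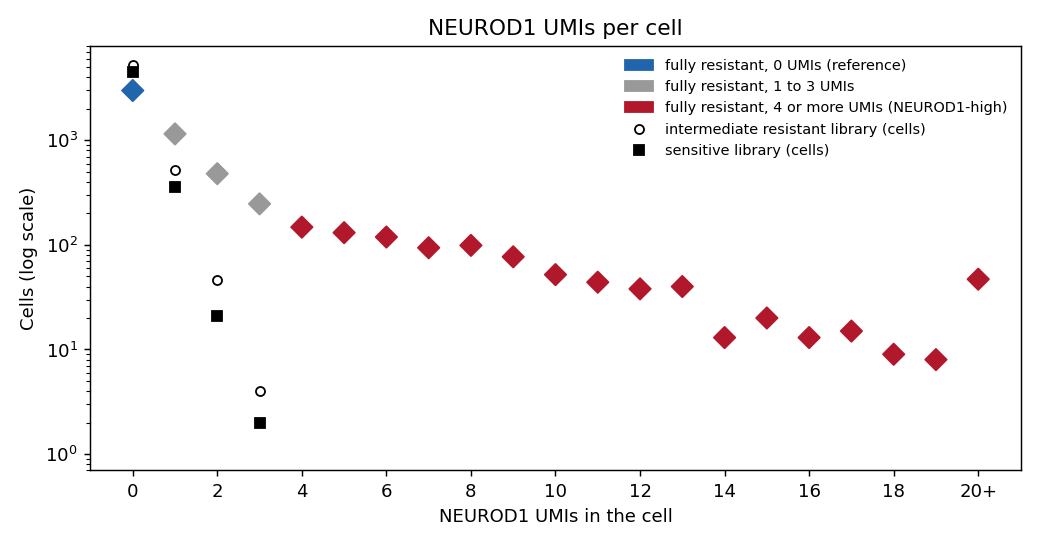
Number of cells (log scale) at each NEUROD1 UMI count, with counts of 20 or more pooled. Diamonds are fully resistant cells, blue for 0, grey for 1 to 3 and red for the 967 cells with 4 or more. Circles (intermediate resistant) and squares (sensitive) end at 3 UMIs, and the diamonds continue without a gap at the cut.

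The subset's cells were somewhat deeper than NEUROD1-zero cells, with a median of 17784 UMIs (9547 to 59289) against 15815 (9501 to 46487), and held more genes also at equal depth (a median of 2888 against 2662 after thinning, 4059 against 3544 before). Their median share of UMIs from ribosomal protein genes was 27.0% against 35.02%, and from mitochondrially encoded genes 6.12% against 6.75%. A called G2 or M phase was found in 34.1% (31.1 to 37.2) of the subset and 24.1% (22.5 to 25.6) of NEUROD1-zero cells. Doublets were kept, because Scrublet called only 9 of the 5843 cells (0.154%, 3 of them in the subset) and so found almost none. Between the fully resistant library and the others, 46 barcodes were shared with intermediate resistant and 53 with sensitive cells, 12 of them in the subset. The part of these properties in the gene differences below was not tested, except where a value with matched depth or phase is given.

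Few markers of other cell types reached 5 CPM in the subset: 1 of 7 for glia, 2 of 7 for fibroblasts, 1 of 4 for endothelium and 0 of 6 for blood. The 1 glial marker gave most of the glial sum, which was not low. Summed levels in the subset and in NEUROD1-zero cells were 70.5 and 102 CPM for 7 glial markers (S100B and CDH19 at 0), 18.5 and 18.4 for 7 fibroblast markers (COL3A1 and DCN at 0), 14.7 and 44.7 for 4 endothelial markers (CDH5 and KDR at 0) and 1.18 and 2.55 for 6 blood markers (CD3E and HBB at 0). The endothelial sum was almost all CLDN5 (14.5 and 43.8 CPM). The 5 chromaffin markers were at 265 CPM in sum against 747, with 3 of them at 5 CPM or more in the subset. All 8 sympathoblast markers exceeded 5 CPM in the subset, at 1310 CPM in sum against 1561. NEFM, the second marker given for the subset, was high in it as described next.

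Genes were sorted by size, with no test: a gene counted as higher or lower where its level reached 20 CPM in the higher group and its ratio 1.5. Of 5268 genes at that level, 314 (5.96%) were higher and 100 (1.9%) lower in the subset than in NEUROD1-zero cells, and at a ratio of at least 2 the counts were 104 (1.97%) and 46 (0.873%). The median log2 ratio of all these genes was 0.21 and not 0, beside the lower ribosomal share, so a single gene's ratio is to be read against that value. When the scaling was changed the median moved to 0.01 by TMM and to 0.02 without the mitochondrially encoded and ribosomal protein genes. The higher genes then fell from 75.8% of those counted to 44.4% by TMM, 45.4% by median of ratios and 46.3% without those genes. Each of the 3 scalings shifts every log2 ratio down by 1 constant, so all 100 lower genes stayed lower by construction. Of the 314 higher genes 157 stayed higher by TMM. The genes at both ends of the ranking, 20 highest and 15 lowest, kept their call under all 16 settings tried for single genes. The 3 scalings among these settings could not change a call so far from the cut. Most other settings reused nearly the same cells in which these genes were picked as extremes, so the kept calls are no separate evidence.

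The highest ratios belonged to 2 genes with hardly any UMIs in NEUROD1-zero cells and in the other libraries. PPP1R17 (ENSG00000106341), an inhibitor of protein phosphatases, was at 86.3 CPM in the subset and 1.20 CPM in NEUROD1-zero cells, 71.6-fold higher (55.4 to 94.3). PDZRN4 (ENSG00000165966), which encodes a PDZ and RING domain protein, was at 100.5 and 1.87 CPM, 53.9-fold higher (43.7 to 67.1). In the other libraries PPP1R17 had 0 UMIs, which allows up to 0.0303 CPM in intermediate resistant and 0.0328 CPM in sensitive cells, and PDZRN4 was at 0.050 and 0.033 CPM. Both sizes moved with the choice of cells. PPP1R17 was 114-fold higher among cells of at least 15000 UMIs, and PDZRN4 30.2-fold higher when both groups were chosen on NEUROD1 counts after thinning.

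Neither gene was detected in every cell of the subset, and at these levels a cell without a UMI may still express the gene. After thinning, a PPP1R17 UMI was found in 37.0% of subset cells and 0.968% of NEUROD1-zero cells (45.7% and 1.5% before thinning), and PDZRN4 in 51.8% and 1.37% (63.4% and 2.14% before). The shares in NEUROD1-zero cells serve as the background.

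NEFM, the medium neurofilament subunit, gave the most UMIs of the highest 20, at 2103 CPM in the subset and 222 CPM in NEUROD1-zero cells, 9.48-fold higher (9.28 to 9.68). Intermediate resistant and sensitive cells held it at 57.5 and 64.6 CPM, so NEUROD1-zero cells of the fully resistant library were also above both. Per cell thinned to 9500 UMIs, NEFM ran from 0 to 102 UMIs in the subset with a median of 17, and from 0 to 51 with a median of 1 in NEUROD1-zero cells. The ranges overlapped, with 34 NEUROD1-zero cells (1.13%) at or above the subset's median and 32 subset cells (3.31%) without NEFM. The variance of NEFM over subset cells was 15.1 times its mean, against 7.33 times in NEUROD1-zero cells.

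**Figure D2:**
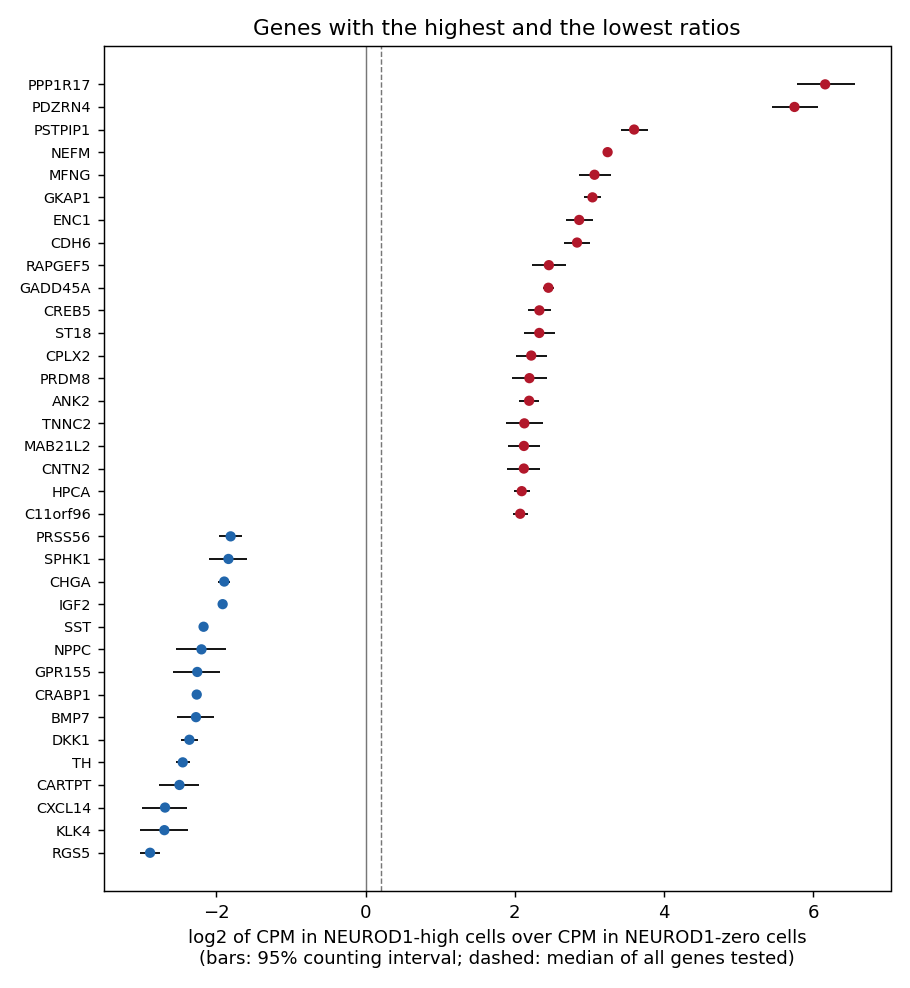
Log2 ratio of CPM in NEUROD1-high over NEUROD1-zero cells for the 20 highest (red) and 15 lowest (blue) genes of at least 20 CPM, with 95% counting intervals as bars. The dashed line is the median of all genes tested (0.21), and PPP1R17 and PDZRN4 stand apart from PSTPIP1, the next gene.

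The other genes of the highest 20 fell into several functions. PSTPIP1, an actin-linked adaptor better known from blood cells, was at 76.0 against 6.26 CPM (12.1-fold). MFNG, a glycosyltransferase that modifies Notch receptors, was at 39.6 against 4.72 CPM (8.39-fold), and GKAP1, an anchor of cGMP-dependent kinase, at 129 against 15.7 CPM (8.24-fold). ENC1, an actin-binding protein of the developing nervous system, was at 52.3 against 7.18 CPM, and the cadherin CDH6 at 52.1 against 7.30 CPM. GADD45A, a growth arrest and DNA damage gene, was at 269 against 49.2 CPM (5.47-fold). The remaining 11 genes were 4.21 to 5.49-fold higher and included the zinc-finger factor ST18 (31.0 against 6.16 CPM), the complexin CPLX2, which acts in vesicle fusion (28.5 against 6.12 CPM), the axonal adhesion protein CNTN2 (24.2 against 5.56 CPM), the membrane anchor ANK2 (69.4 against 15.2 CPM) and the neuronal calcium sensor HPCA (97.2 against 22.8 CPM).

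More of the listed proneural and neurogenic transcription factors were higher than lower in the subset. This list, like those below, was drawn up with earlier results of these data known, so its counts are a description. Of 32 listed factors without NEUROD1, 20 were measured (at least 5 CPM in the higher group), and 13 were higher and 1 lower by 1.5-fold, against 6.81% higher and 2.76% lower of all 9490 genes measured this way. The list's median log2 ratio was 0.90, beside 0.19 for all measured genes. HES6, a helix-loop-helix factor that promotes neuronal differentiation, was at 603 against 205 CPM, 2.94-fold higher (2.87 to 3.02). INSM1, a zinc-finger factor of neuroendocrine differentiation, was at 37.2 against 13.1 CPM (2.84-fold), and NHLH1 at 25.5 against 7.0 CPM (3.64-fold). NEUROD4, of the same family as NEUROD1, was at 125 against 67.0 CPM (1.87-fold), and at 2.96 CPM in intermediate resistant and 0.0109 CPM in sensitive cells.

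Further members of that list were named after their values were seen. ATOH8 was at 14.8 against 1.28 CPM (11.5-fold, 8.72 to 15.3), NEUROG2 at 14.1 against 4.03 CPM (3.48-fold), EBF1 at 16.3 against 3.53 CPM (4.60-fold) and NEUROG1 at 20.8 against 10.3 CPM (2.03-fold). ATOH8, NEUROG2 and EBF1 met the 5 CPM filter only through the subset, so their calls are no separate evidence. The 1 factor counted as lower was INSM2, at 33.2 against 52.7 CPM. By TMM the list held 12 higher and 2 lower.

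In each of 4 lists of neuronal structure and function, some genes were higher and most did not reach the cut, apart from axon guidance. Of 23 measured genes of the neuronal cytoskeleton 11 were higher and 0 lower (median log2 0.58), among them the microtubule protein DCX at 66.2 against 19.95 CPM (3.32-fold), BASP1, a growth cone protein, at 1271 against 653 CPM (1.95-fold), and STMN2 at 121 against 63.9 CPM (1.90-fold). Of 19 measured genes of axon guidance and adhesion 11 were higher and 0 lower (median 0.79). The guidance receptors ROBO1 (29.3 against 8.15 CPM), NRP1 (31.5 against 8.93 CPM) and NRP2 (97.8 against 29.1 CPM) were 3.59, 3.53 and 3.36-fold higher. Of 21 measured synapse and exocytosis genes 9 were higher and 1 lower (median 0.46), and SYT1, the calcium sensor of vesicle release, was at 516 against 221 CPM (2.34-fold). Of 13 measured ion channel genes 5 were higher and 0 lower (median 0.35). By TMM these counts were 7 and 0 for the cytoskeleton, 10 and 3 for axon guidance, 7 and 1 for the synapse and 1 and 0 for ion channels, with medians of 0.38, 0.59, 0.27 and 0.16.

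**Figure D3:**
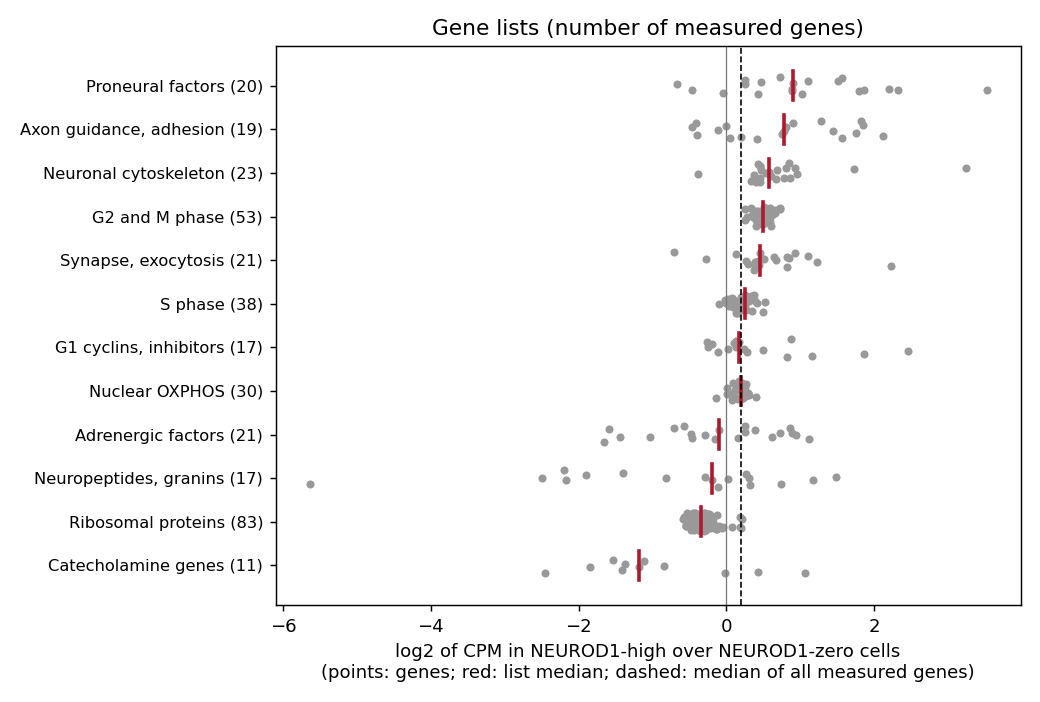
Log2 ratio of CPM in NEUROD1-high over NEUROD1-zero cells for the measured genes of 12 lists (grey points), with the list median (red) and the median of all measured genes (dashed, 0.19). Proneural factors have the highest median (0.90) and catecholamine genes the lowest (-1.19).

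Catecholamine genes went the other way. Of 11 measured genes 8 were lower and 1 higher, with a median log2 ratio of -1.19, and the count was the same by TMM. TH, the rate-limiting enzyme of catecholamine synthesis, was at 54.2 CPM in the subset and 297 CPM in NEUROD1-zero cells, 5.47-fold lower (5.14 to 5.84). DBH, which makes noradrenaline, was at 153 against 441 CPM (2.89-fold lower), DDC, which makes dopamine, at 118 against 312 CPM (2.66-fold lower), and GCHFR, a regulator of the cofactor pathway, at 50.2 against 114 CPM (2.28-fold lower). The 1 higher gene was GCH1, the enzyme that starts synthesis of the TH cofactor, at 32.1 against 15.4 CPM (2.08-fold, named after its values were seen). TH stood at 292 CPM in intermediate resistant and 45.9 CPM in sensitive cells. The subset's TH level was therefore near that of the sensitive library, and that of NEUROD1-zero cells near the intermediate resistant one.

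After thinning, TH was found in 20.9% of subset cells and 61.7% of NEUROD1-zero cells (29.1% and 69.5% before). No UMI of TH, DDC or DBH was found in 31.5% (28.6 to 34.6) of subset cells, 5.41% of NEUROD1-zero cells and 6.91% of cells with 1 to 3 NEUROD1 UMIs. In 31.0% of the subset an NEFM UMI and no UMI of the 3 enzymes was found, against 2.54% of NEUROD1-zero cells. These are shares of detection at 9500 UMIs and not shares of cells that lack the RNA. Only 2.79% of the subset had an enzyme UMI and no NEFM, against 34.5% of NEUROD1-zero cells. The median NEFM count rose from 1 in NEUROD1-zero cells to 3, 9, 18 and 23 at NEUROD1 counts of 3, 4 to 5, 6 to 9 and 10 or more, while the median of the 3 enzymes together fell from 8 to 4, 2, 1 and 1.

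**Figure D4:**
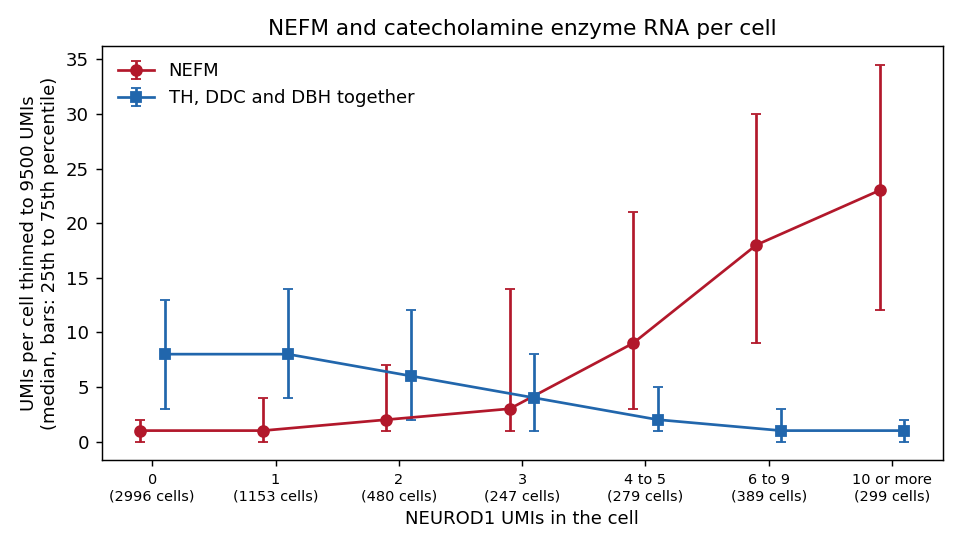
UMIs per cell thinned to 9500 UMIs for NEFM (red) and for TH, DDC and DBH together (blue), by the cell's unthinned NEUROD1 count, as medians with bars from the 25th to the 75th percentile over cells. Median NEFM rises from 1 to 23 and the median of the enzymes falls from 8 to 1, and the bars overlap between neighbouring classes.

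Adrenergic transcription factors, the core set of sympathetic neuroblasts, were split. Of 21 measured factors 6 were higher and 5 lower (median log2 -0.09), and 4 and 8 by TMM. GATA2 was at 32.8 against 103 CPM (3.14-fold lower), TFAP2B at 29.8 against 90.0 CPM (3.02-fold lower), HAND1 at 57.7 against 156 CPM (2.70-fold lower) and PHOX2A at 166 against 340 CPM (2.05-fold lower). EYA1 was at 37.0 against 17.04 CPM (2.17-fold higher), and SOX11, named after its values were seen, at 259 against 140 CPM (1.86-fold higher). MYCN, the amplified oncogene, was at 428 against 445 CPM, and ALK, the drug's target, was near the limit of detection at 0.590 against 1.40 CPM. SOX2 was at 17.5 against 22.1 CPM.

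The lowest genes included secreted peptides and signal regulators. RGS5, which shuts off G protein signals, had the lowest ratio at 26.7 against 198 CPM (7.42-fold lower, 6.78 to 8.13). RGS5 was at 3052 CPM in intermediate resistant and 3044 CPM in sensitive cells, so both fully resistant groups were far below them. The neuropeptides CARTPT (6.44 against 36.3 CPM, 5.64-fold lower) and SST (109 against 491 CPM, 4.51-fold lower) and the granin CHGA (73.0 against 271 CPM, 3.72-fold lower) were lower, and of 17 measured neuropeptide and granin genes 7 were lower and 3 higher (median -0.19). The 3 higher were SCG2 (45.1 against 16.1 CPM), SCG3 (182 against 109 CPM) and NMU (19.8 against 8.85 CPM), and the lowest of the list was CRH with 3 UMIs in the subset (0.161 against 8.03 CPM, a ratio of 0.020 with an interval of 0.0041 to 0.059). These 4 were named after their values were seen.

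DKK1, a secreted Wnt antagonist, was at 33.8 against 174 CPM (5.15-fold lower), and BMP7, a growth factor, at 7.56 against 36.6 CPM (4.84-fold lower). CRABP1, which binds retinoic acid in the cytoplasm, was at 129 against 619 CPM (4.81-fold lower), whereas CYP26A1, which degrades retinoic acid, was at 25.3 against 7.30 CPM (3.46-fold higher). IGF2, an insulin-like growth factor, was at 175 against 663 CPM (3.78-fold lower) and DLK1, a Notch pathway protein of immature endocrine cells, at 690 against 2148 CPM (3.11-fold lower). ARHGAP36, which inhibits protein kinase A, was at 169 against 405 CPM (2.39-fold lower). In the list of protein kinase A and RGS genes 3 of 20 were higher and 4 lower (median 0.03, and -0.16 by TMM).

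Cell cycle genes were partly higher, beside the larger share of G2 and M phase cells. Of 53 measured G2 and M phase genes 11 were higher and 0 lower (median log2 0.50), and of 38 S phase genes 0 and 0 (median 0.25). By TMM 0 of the 53 were higher (median 0.30), and with NEUROD1-zero cells weighted to the subset's depth and phase 0 were higher (median 0.11). AURKA, a mitotic kinase, was 1.64-fold higher as counted and 1.04-fold with that weighting. Phase was called from these same lists, AURKA included, so the weighting draws their ratios toward 1 by construction. It cannot show whether these genes differ beyond the share of phases. Genes of the G1 phase were in part higher as well. CDKN1A, the inhibitor p21, was at 78.9 against 21.7 CPM (3.64-fold), and CCND1, cyclin D1, at 558 against 249 CPM (2.24-fold), and both kept their call with depth and phase weighted. Of the 17 measured G1 cyclins and inhibitors 5 were higher and 0 lower (median 0.16, and -0.03 by TMM).

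Housekeeping lists differed little by gene and together in level. Of 83 measured ribosomal protein genes 1 was lower (median -0.35) and by TMM 34 were lower, and of 30 nuclear genes of oxidative phosphorylation 0 were higher and 0 lower (median 0.20). CTCFL, a paralog of CTCF normally found in the male germ line, was at 167 against 116 CPM, 1.43-fold higher (1.37 to 1.5), which did not reach the cut. Both groups exceeded the 3.36 CPM of intermediate resistant and 0.568 CPM of sensitive cells. No chromosome stood out, as the median log2 ratio per chromosome lay between 0.18 and 0.27.

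Summed levels were graded along the NEUROD1 count, and the differences did not start at the cut. Such sums cannot tell a gradient across cells from a changing mixture of cells, since low counts also vary by sampling, and this was not tested. In cells with 3 NEUROD1 UMIs, NEFM after thinning had a 25th percentile of 1, a median of 3 and a 75th percentile of 14. In cells with 0, 1, 2, 3, 4 to 5, 6 to 9 and 10 or more NEUROD1 UMIs, NEFM was at 222, 352, 662, 985, 1414, 2151 and 2606 CPM. PPP1R17 was at 1.20, 3.05, 14.6, 18.1, 40.2, 84.1 and 126 CPM over the same classes. TH stayed at 297 and 295 CPM in the first and second class and was at 236, 138, 87.5, 39.8 and 43.3 CPM in the others. CRABP1 was at 619, 566, 470, 316, 196, 120 and 84.3 CPM.

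These genes were chosen on the ends of the same NEUROD1 count, so their levels along it are a description, and some steps lay within counting error. The summed level of 19 of the 20 highest genes was higher in each class than in the one before, the exception being CPLX2, and that of 8 of the 15 lowest was lower (RGS5, DKK1, BMP7, CRABP1, NPPC, SST, CHGA and SPHK1). CTCFL was at 116 CPM in NEUROD1-zero cells and at 164, 168 and 168 CPM at 4 to 5, 6 to 9 and 10 or more NEUROD1 UMIs. NEUROD4 was at 67.0 CPM in NEUROD1-zero cells and did not rise further within the subset, at 131, 124 and 122 CPM. A cell's NEUROD1 count also follows its depth, and the median depth was 15815 UMIs in the first class and 19499 in the last.

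**Figure D5:**
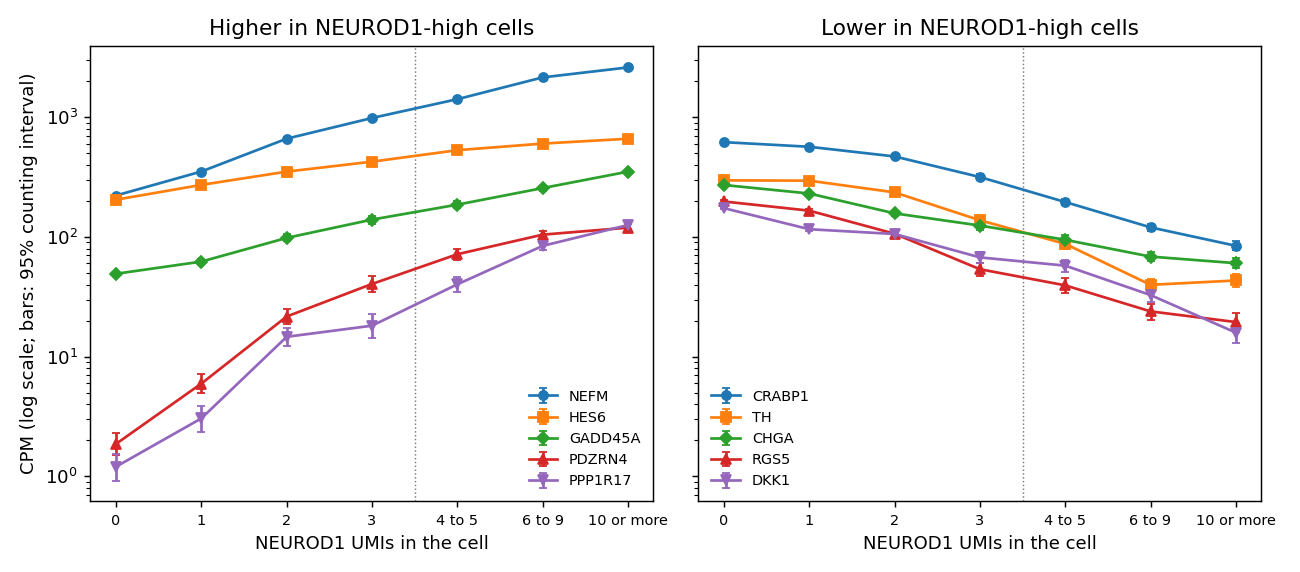
CPM (log scale) of 5 higher and 5 lower genes in fully resistant cells grouped by NEUROD1 UMIs, with 95% counting intervals as bars and the cut of the subset as a dotted line. NEFM climbs from 222 to 2606 CPM and RGS5 drops from 198 to 19.4 CPM, and neither line breaks at the cut.

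Subset cells lay near one another in expression space with NEUROD1 and the mitochondrially encoded and ribosomal protein genes left out. Among a cell's 20 nearest neighbours (by principal components of thinned counts), members of the subset made up 59.3% on average for subset cells, 12.5% for cells with 1 to 3 NEUROD1 UMIs and 3.4% for NEUROD1-zero cells, where the library's share was 16.5%. At the cut the values were 41.7% for cells with 4 NEUROD1 UMIs and 26.8% for cells with 3, and at 10 or more they reached 72.9%. Members made up 50% or more of the neighbours for 69.4% of the subset and 0.9% of NEUROD1-zero cells. Without the S, G2 and M phase genes the averages were 59.6% and 3.3%.

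The same comparison was made in the other libraries, which the choice of cells did not use, at a lower cut of 2 NEUROD1 UMIs. In the fully resistant library this cut gave 1694 cells, with 171 genes higher (3.32%) and 56 lower (1.09%) than in NEUROD1-zero cells, and NEFM was 6.97-fold higher (6.83 to 7.11). In the intermediate resistant library only 50 cells qualified, so levels near 20 CPM rest on few UMIs. Free RNA there held NEUROD1 at 7.52 CPM, beside 6.31 CPM in its cells, and whether the 50 cells express NEUROD1 was not tested. In them 100 genes (2.07%) were higher and 141 (2.92%) lower than in the 5264 NEUROD1-zero cells of that library. NEFM was at 66.1 against 57.1 CPM there (ratio 1.16, 0.88 to 1.49), HES6 at 54.0 against 48.2 CPM (1.12, 0.83 to 1.48) and TH at 310 against 292 CPM (1.06, 0.94 to 1.19). Of the 20 highest genes 5 reached 20 CPM there, and 1 of them, ANK2, passed the ratio (20.9 against 12.5 CPM, 1.68, 1.01 to 2.63). ANK2 met the 20 CPM filter only through the 50 cells in which it was high, so it is no separate evidence. Of the 15 lowest genes 9 reached 20 CPM there, and 1 of them passed the ratio. Whatever the level, 4 of the 15 had a counting interval wholly below 1 (CHGA, CRABP1, DKK1 and SST) and 2 wholly above 1 (CARTPT and IGF2). DKK1 was at only 4.47 CPM in that library. With NEUROD1-zero cells weighted by depth the counts were 3 and 2, and at 1 NEUROD1 UMI 3 and 3. The upper bound for NEFM lay below its ratio in the fully resistant library at the same cut, with 1 library on each side and no test of the difference.

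At 1 NEUROD1 UMI the fully resistant library gave 72 higher (1.43%) and 20 lower genes (0.396%), and the intermediate resistant (572 cells) and sensitive (384 cells) libraries gave 0 in either direction (0%). The sensitive library had 23 cells with 2 or more UMIs, too few for the 50 required. Its free RNA held NEUROD1 at 5.06 CPM, beside 4.47 CPM in its cells.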

How the data were processed

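Raw UMI counts per gene and barcode were taken as deposited, with no normalization by the authors and 32738 gene rows. Per the submitters' processing notes, bcl2fastq, Cell Ranger and the hg19 build were used, without versions. Groups followed the response in the labels. Cells, members and NEUROD1-zero cells were set by the counts given in the results. The members and the gene lists were chosen with earlier results of these data known.

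UMIs were summed over cells and divided by the group's total without NEUROD1 (CPM). The sums held 18650334 UMIs in the subset and 49831248 in NEUROD1-zero cells. The 95% intervals of ratios were exact conditional Poisson intervals, and those of cell shares were exact binomial (Clopper-Pearson). A gene with 0 UMIs in the lower group was set to a floor of 3 UMIs, and a 0 was given the limit that 3 counts allow. Phases were called from each cell's share of S phase genes and of G2 and M phase genes after thinning, each standardized over cells. A cell counted as G2 or M phase where that share was above its mean and its standardized value at least that of S. Doublets were sought with Scrublet (expected rate 0.05) in scanpy 1.11.5. Neighbours used 30 principal components of 2000 variable genes, without NEUROD1, mitochondrially encoded and ribosomal protein genes. TMM factors came from edgeR 4.0.16. Calculations used Python 3.11.15, NumPy 2.4.6, SciPy 1.17.1 and pandas 2.3.3, and the ratio script was tested on simulated data.

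Named genes were the 20 highest and 15 lowest ratios at 20 CPM or more (without mitochondrially encoded, ribosomal protein, clone-named and unnamed genes), up to 4 of the largest changes in each of 37 lists, and a fixed set of 13 genes in the table. Other names are marked as chosen after their values were seen, and some genes are not reported here. Alternatives varied scaling, cell weights, thinning, cuts, filters, depth and phase matching and doublets.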

Additional observations from a re-analysis of the deposited data

Results flagged for a closer look

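Cells with at least 2 NEUROD1 UMIs were set against cells without one. For CARTPT and IGF2 the counting interval of this ratio lay above 1 in the intermediate resistant library and below 1 in the fully resistant one. The log2 ratio of CARTPT was 0.34 in the intermediate resistant library (364 against 288 CPM) and -1.38 in the fully resistant one (13.9 against 36.3 CPM). The log2 ratio of IGF2 was 0.23 (1441 against 1227 CPM) and -1.12 (305 against 663 CPM). Of the 15 genes with the lowest ratios in the subset, these were the 2 with a counting interval wholly above 1 in the intermediate resistant library, and 4 had one wholly below 1. Each state had 1 library and the intermediate resistant group 50 cells, so the difference between the libraries was not tested. Whether those 50 cells express NEUROD1 was not tested either.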

How the results depend on the processing

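With 1 library per state, no setting measures variation between cultures, and depth limits genes near 20 CPM. No paired analysis was possible because each state had a single library. No direction was reversed among the 84 named genes counted as higher or lower, and 69 kept their call under all 16 settings. The 3 scalings each lost 12 calls, among them AURKA, CKAP2L, ETV1, HSPH1, MAGEA3, NUF2, SYP, TTK and ZEB1. Weighting by depth and phase lost AURKA, CDKN2D, CKAP2L, CRELD2, MAGEA3, NUF2, SDF2L1 and TTK. Of these, AURKA, CKAP2L, NUF2 and TTK are in the G2 and M phase list from which phase was called. Against 314 higher and 100 lower genes, TMM gave 157 and 197, median of ratios 159 and 191, and leaving mitochondrially encoded and ribosomal protein genes out of the total 219 and 254. A level of at least 10 CPM gave 480 and 163, at least 50 CPM 156 and 43, no filter 2066 and 1568, and a ratio of at least 2 gave 104 and 46, all by construction. The other settings gave 251 to 401 higher and 81 to 119 lower. At 1 instead of 2 NEUROD1 UMIs the fully resistant library gave 72 and 20 genes instead of 171 and 56, and the intermediate resistant library 0 and 0 instead of 100 and 141, and the cause was not tested.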
